A study of Luffa aegyptiaca with 4 samples.

Results

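The 177 transcripts described here had their level cut to a small remnant under heat stress in Luffa aegyptiaca, the sponge gourd, yet were still detected in at least 1 heat-stressed library. They were chosen by the measured values themselves, out of 48619 rows of the deposited expression table. A row was taken if it was no lipoxygenase, lay above 0 in at least 1 heat library, had a mean of at least 1 FPKM over the 4 libraries, and had a mean log2(FPKM + 1) under heat at least 4 below that of control. FPKM are fragments counted per kilobase of transcript and corrected for library size, a scale on which levels of different transcripts can be compared per length. A difference of 4 on a log2 scale is 16-fold. Since the difference between heat and control made the choice, it is given below as a description and is not tested for these transcripts.

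The series holds 2 samples under heat stress and 2 control samples, each labelled as biological replicate 1 or 2, and heat is the agent by which they differ. The source is labelled only as tissue: the organ, plant age, cultivar, temperature and duration are unstated in the labels, which also do not say whether the replicates were separate plants. Values summed to 599611 and 551921 FPKM in heat libraries 1 and 2, and to 560000 and 567901 FPKM in control libraries 1 and 2, while read depth is unknown. The table pairs none of the 177 ID numbers with a gene name or function, so the transcripts are described by level, by how little was left of them, by their share of the library and by their place in the numbering. Markers of organs or cell types could not be matched either, and the makeup of the tissue in the 2 groups was not tested.

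As background, the level of an mRNA is set by the balance of its synthesis and its decay. Plants under heat stress are known to make large amounts of heat shock protein mRNAs through heat shock transcription factors, while many mRNAs for growth, photosynthesis and routine metabolism decline. RNA-seq of bulk tissue measures the outcome as a share of the sequenced RNA. Fewer cells of the type that holds a transcript and less RNA of it per cell cannot be told apart in such samples.

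Control levels of the 177 transcripts were high, and residual levels spread over a wide range. The mean under heat had a median of 1.71 FPKM over the 177, with a lowest value of 0.0298 and a highest of 85.8 FPKM. The mean in control had a median of 71.0 FPKM, with a lowest value of 16.3 and a highest of 2532 FPKM. Over all 18186 transcripts tested, those that averaged 1 FPKM or more, the median was 8.24 FPKM under heat and 9.95 FPKM in control. The chosen transcripts thus came from the upper part of the control range, as the rule requires: on the log2(FPKM + 1) scale a fall of 4 needs a control level of at least 15 FPKM. Of the 6879 transcripts that reached that control level, the 177 were 2.57%.

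What was left under heat was usually a few percent of the control level. The heat mean was 2.48% of the control mean in the median transcript, with quartiles of 1.19% and 3.70% and a range of 0.150% to 11.7%. In ratios of mean FPKM, the median difference was 40.3-fold. The lowest percentage came from a transcript at 0.0595 FPKM in heat library 1 and listed at 0 in heat library 2, and so rests on a single value. For 175 of the 177 the ratio of means was at least 16-fold; the exceptions were 8.53-fold and 15.8-fold, because the rule averages logarithms and not FPKM. In 167 of the 177, even the higher heat value was under a 16th of the lower control value.

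**Figure D1:**
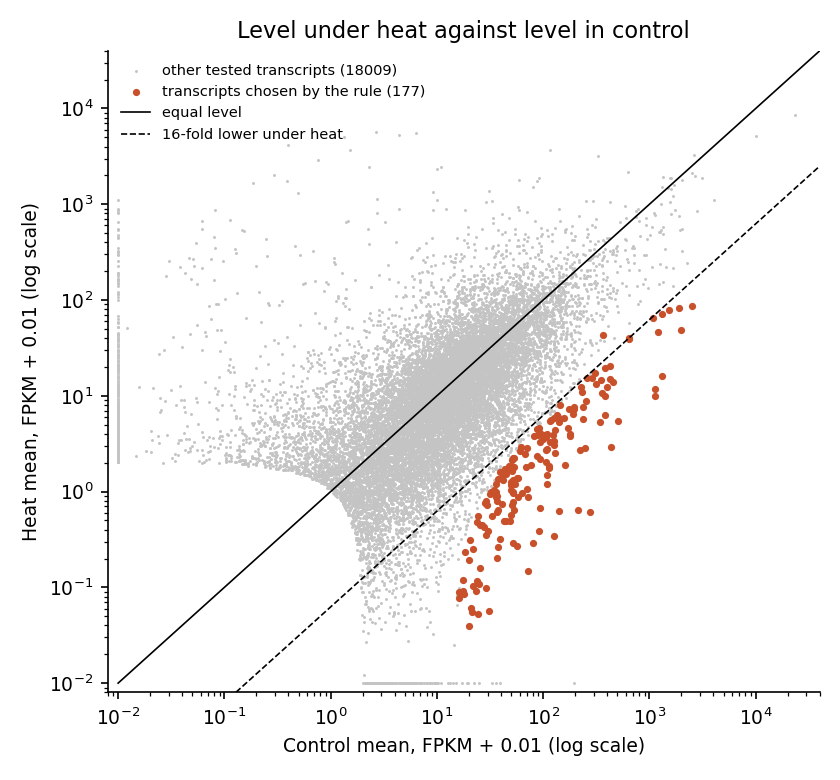
Mean FPKM of the 2 heat libraries (vertical) against mean FPKM of the 2 control libraries (horizontal), each plus 0.01 on a log scale, for all 18186 tested transcripts. The 177 chosen transcripts (coloured) lie along and below the dashed line of a 16-fold difference, at control means from 16.3 to 2532 FPKM; the point farthest above that line has a ratio of 8.53-fold.

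The spread of the change was cut at one end by the threshold. On the log2(FPKM + 1) scale, heat minus control had a median of -4.53 over the 177 and quartiles of -4.96 and -4.18; over all 18186 transcripts the median was -0.20. The numbers thinned out quickly below the threshold: 83 transcripts lay between -4 and -4.5, 55 between -4.5 and -5, 25 between -5 and -6, and 14 at -6 or lower. The rule used this contrast, so it is no result that all 177 passed the test of heat against control as lower (limma, Benjamini-Hochberg adjustment), where 42.5% of all transcripts tested did and 30.9% passed as higher. Nor is it one that all 177 had both heat values below both control values, as was the case for 49.6% of all transcripts. A log2 difference of -4 or lower was found for 184 transcripts or 1.01% of those tested, and one of 4 or higher for 294 or 1.62%. The 7 of the 184 that are not described here were listed at 0 in both heat libraries, 1 of them a lipoxygenase.

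Transcripts on either side of the threshold had nearly the same change. The 3 transcripts just inside it, Luffa_aegyptiaca19630.t01, Luffa_aegyptiaca16777.t01 and Luffa_aegyptiaca37308.t01, each had a log2 difference of -4.002, and the 3 just outside lay between -3.997 and -3.993. Luffa_aegyptiaca16777.t01 stood at 18.1 and 12.7 FPKM in heat libraries 1 and 2, against 259 and 257 FPKM in control libraries 1 and 2. Luffa_aegyptiaca14199.t01, the nearest outside, stood at 7.50 and 6.37 FPKM under heat and at 120.2 and 131 FPKM in control. These 2 differ in level and hardly in the size of their change.

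The residual level followed the control level in part because the rule adds 1 FPKM to every value. The 63 transcripts with a control mean under 50 FPKM had a median of 0.486 FPKM under heat, or 1.66% of control. For the 76 between 50 and 200 FPKM in control the median was 2.40 FPKM under heat, or 2.62% of control. For the 28 between 200 and 1000 FPKM in control it was 11.6 FPKM under heat, or 3.33%. For the 10 with 1000 FPKM or more in control it was 57.3 FPKM under heat, or 3.60%. A transcript of low control level could enter only if it had almost vanished, so this order is not read as a finding. How far the choice accounts for the order was not tested. The share of tested transcripts that were chosen also grew with control level, from 1.30% under 50 FPKM (counted from 15 FPKM) to 4.37%, 11.3% and 18.9% in the next classes. Of all tested transcripts in these classes, limma called 50.6%, 62.7%, 77.8% and 67.9% lower.

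Several of the chosen transcripts were among the leading RNAs of the control tissue. Luffa_aegyptiaca19631.t01 had the highest control level of the 177 and ranked 8th in the mean of the control libraries. It stood at 112 and 59.6 FPKM in heat libraries 1 and 2, against 2194 and 2871 FPKM in control libraries 1 and 2, so that 3.39% was left. Luffa_aegyptiaca03946.t01 stood at 67.3 and 97.2 FPKM under heat, against 2364 and 1466 FPKM in control, with 4.29% left. Both groups varied between replicates here, by less than the gap between the groups.

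Transcripts with like control levels kept unlike remnants. Luffa_aegyptiaca21157.t01 stood at 91.3 and 65.8 FPKM in heat libraries 1 and 2, against 1476 and 1553 FPKM in control libraries 1 and 2, with 5.19% left. Luffa_aegyptiaca22558.t01 stood at 17.6 and 14.2 FPKM under heat, against 1294 and 1332 FPKM in control, with 1.21% left. The heat values of this pair did not overlap, although all 4 of their control values lay between 1294 and 1553 FPKM. In log2(FPKM + 1), the difference of heat minus control was -4.27 with a standard error of 0.19 for 21157 and -6.29 with a standard error of 0.14 for 22558. Over the 10 transcripts with at least 1000 FPKM in control, the remnant ran from 0.886% to 6.13%.

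The rule uses the control values and needs a control level of at least 15 FPKM, so it favours high control ranks. The chosen transcripts made up 13 of the 100 transcripts with the highest control mean, 49 of the top 500 and 81 of the top 1000. They were 2.57% of all 6879 tested transcripts that reached that control level, and the counts are a description of the choice. Their heat ranks restate the large fall that the rule asks for. By the heat mean, 0 of the 177 were among the top 1000, and the best rank was 1123, that of Luffa_aegyptiaca19631.t01. They were not all near the detection limit under heat: 25 kept a mean of at least 10 FPKM, 86 a mean from 1 to under 10 FPKM and 53 a mean from 0.1 to under 1 FPKM. The remaining 13 had a mean under 0.1 FPKM.

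The 4 lowest log2 differences included 3 transcripts that were low in both heat libraries, and 20887, which is described below with its unequal heat values. Luffa_aegyptiaca19054.t01 stood at 0.620 and 0.577 FPKM in heat libraries 1 and 2, against 268.7 and 287 FPKM in control libraries 1 and 2, with 0.215% left. Luffa_aegyptiaca10871.t01 stood at 0.584 and 0.683 FPKM under heat, against 226 and 194 FPKM in control, with 0.301% left. Luffa_aegyptiaca19055.t01 stood at 3.62 and 2.26 FPKM under heat, against 424.7 and 437.6 FPKM in control, with 0.682% left. The heat libraries lay closest for 19054 and differed by 0.50 in log2(FPKM + 1) for 19055. Their log2 differences were -7.45, -7.01 and -6.80, with standard errors of 0.11, 0.13 and 0.18 from the limma fit over all transcripts.

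**Figure D2:**
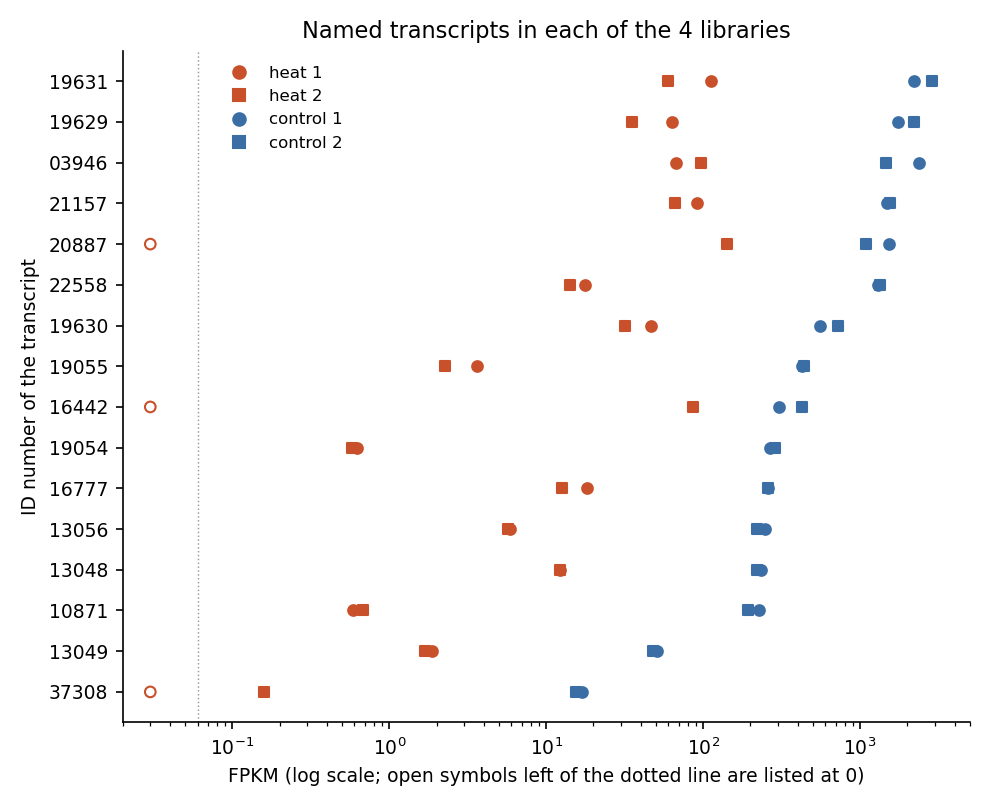
FPKM on a log scale (horizontal) of the 16 named transcripts in each library, ordered by control mean with the highest at the top; circles are replicate 1, squares replicate 2, and open symbols at the left are values listed at 0. The heat values of each transcript lie left of its control values, and 20887 and 16442 are the transcripts at 0 in heat 1 and at 141.5 and 85.8 FPKM in heat 2.

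Together the 177 transcripts were a trace of the heat libraries and a visible share of the control libraries. Their values summed to 1135 and 1159 FPKM in heat libraries 1 and 2, against 34619 and 34382.5 FPKM in control libraries 1 and 2. As a share of all summed FPKM this was 0.189% and 0.210% under heat, and 6.18% and 6.05% in control. The means were 0.1996% ± 0.0146 under heat and 6.12% ± 0.0903 in control (SD, n = 2 each). Summed FPKM under heat was 3.32% of that in control, a 30.1-fold difference. The direction was fixed by the choice, and the sums show how much of the library these transcripts had held.

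A few abundant transcripts carried much of that share. The 10 with a control mean of at least 1000 FPKM held 0.0841% and 0.0954% of heat libraries 1 and 2, against 2.69% and 2.65% of control libraries 1 and 2. The 63 with a control mean under 50 FPKM held 0.00724% and 0.00699% under heat, against 0.375% and 0.351% in control. The 6 most abundant in control made up 31.0% and 35.7% of the FPKM of the 177 in the heat libraries and 30.6% in both control libraries. Of these 6, Luffa_aegyptiaca20887.t01 was listed at 0 in heat library 1, and the other 5 held 31.0% and 23.5% in the heat libraries and 26.2% and 27.4% in the control libraries. The 63 with a control mean under 50 FPKM made up 3.83% and 3.33% of the FPKM of the 177 in the heat libraries and 6.06% and 5.80% in the control libraries.

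**Figure D3:**
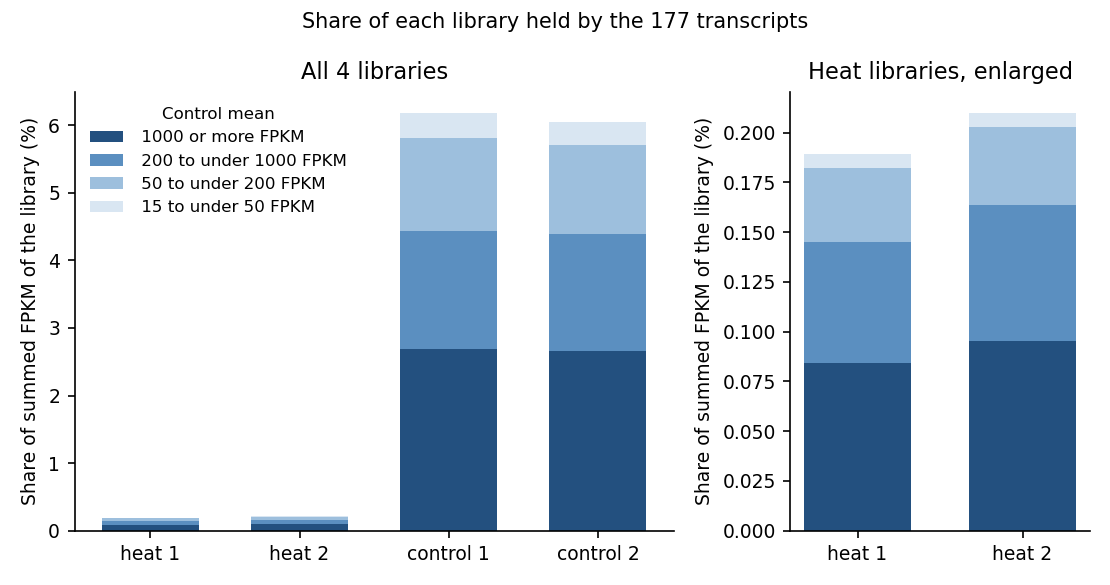
Share of each library's summed FPKM (vertical, %) held by the 177 transcripts, stacked by their mean in control, with the heat libraries enlarged on the right. The bars reach 0.189% and 0.210% in heat 1 and heat 2, and 6.18% and 6.05% in control 1 and control 2; transcripts with 1000 FPKM or more in control form the largest piece in each bar.

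The rule did not use differences between replicates of a group directly. A 0 in 1 heat library lowers the mean of the logarithms, however, and could bring a transcript in. The median absolute difference in log2(FPKM + 1) between the libraries of a group was 0.24 for the 177 under heat and 0.15 in control. For the other tested transcripts between the lowest and the highest mean of the 177, it was 0.21 under heat and 0.10 in control. That range took in 16735 transcripts under heat and 6285 in control, so the levels were not matched. Heat library 1 was the higher one for 102 of the 177 (57.6%), against 45.4% of the other transcripts in the range, and control library 1 was the higher one for 99 (55.9%), against 54.0%. In control, 0 of the 177 differed by more than 1 between the libraries, and the largest difference was 0.69. Under heat, 3 differed by more than 1.

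Those with the largest disagreement were at 0 in heat library 1 and clearly present in heat library 2. Luffa_aegyptiaca20887.t01 was listed at 0 in heat library 1 and stood at 141.5 FPKM in heat library 2, against 1529 and 1099 FPKM in control libraries 1 and 2. Luffa_aegyptiaca16442.t01 was listed at 0 in heat library 1 and stood at 85.8 FPKM in heat library 2, against 306 and 427 FPKM in control. Both heat values of each lay below both control values, but with heat library 2 alone their log2 differences were -3.19 and -2.06, short of the rule. Their standard errors were 2.09 and 1.89 on the log2 scale, against a median of 0.16 over the 177. Both lost their call as lower with a pseudocount of 0.1, with no filter on low values and without either control library, and 16442 also without a variance trend. They held 19.6% of the FPKM of the 177 in heat library 2.

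An exact 0 may stand for an absent transcript or for an estimate that failed. Of the 177, 17 were listed at 0 in 1 heat library, 9 of them in heat library 1 and 8 in heat library 2. For 15 of the 17 the other heat library stood between 0.0595 and 1.09 FPKM, so that both libraries were low. Among all tested transcripts, 344 or 1.89% were listed at 0 in 1 heat library, and 4 of these had at least 50 FPKM in the other one. The same contrast, 0 in one library and at least 50 FPKM in the other, was found for 4 transcripts in the control libraries. Whether these zeros are failed estimates was not tested.

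**Figure D4:**
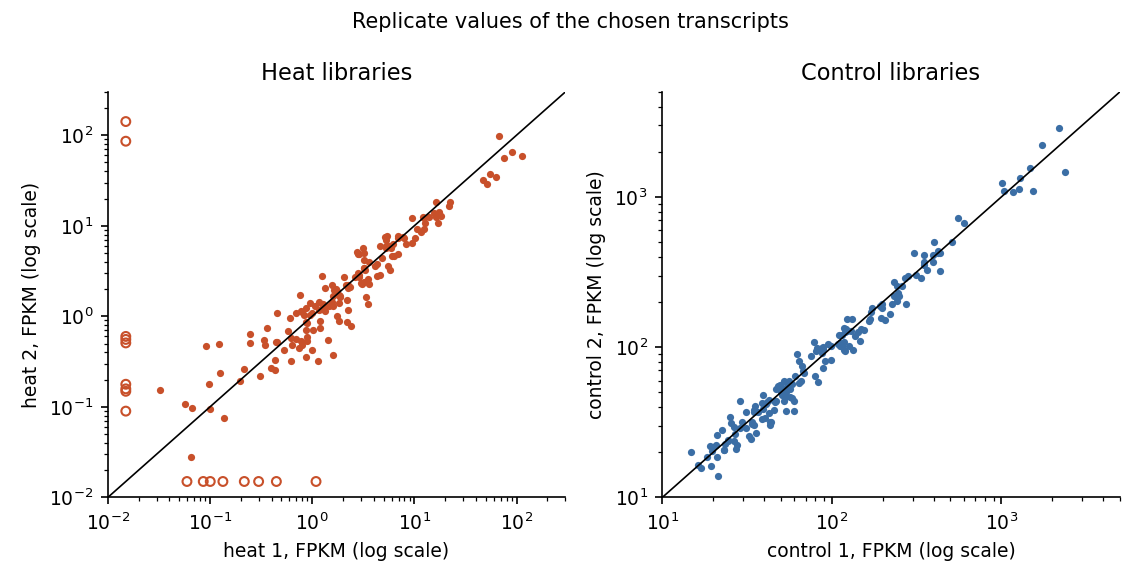
FPKM in library 2 against library 1 on log scales for the 177 transcripts, under heat (left) and in control (right); the line marks equal values and open symbols are transcripts listed at 0 in 1 library. Control values stay near the line, while under heat 17 transcripts are listed at 0 in 1 library, among them those at 141.5 and 85.8 FPKM in heat 2.

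The transcripts carry ID numbers from 1 to 48614, and the sources used here do not state whether these follow the order of genes along the chromosomes. The 177 occurred in all parts of the numbering, with a median distance of 118.5 numbers to the next and quartiles of 36 and 278.8. In blocks of 5000 numbers they made up from 0.341% of the tested transcripts (numbers 40001 to 45000) to 1.46% (15001 to 20000). Of the 177, 137 had no other within 10 numbers, and the remaining 40 (22.6%) formed 17 groups of 2 and 2 groups of 3. There were 10 pairs with consecutive numbers, holding 19 transcripts, out of 10169 consecutive pairs among all tested transcripts. A log2 difference of -4 or lower was found for 1.01% of all tested transcripts. That is a share of single transcripts, so the count of pairs cannot be read against it. No matching share was computed for the pairs or for the groups within 10 numbers, so their counts are a description.

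The group with numbers 19629, 19630 and 19631 was abundant throughout. Luffa_aegyptiaca19629.t01 stood at 63.1 and 35.0 FPKM in heat libraries 1 and 2, against 1742 and 2211 FPKM in control libraries 1 and 2. Luffa_aegyptiaca19630.t01 stood at 46.6 and 31.9 FPKM under heat, against 556.9 and 719.8 FPKM in control. All 3, with 19631 described above, were higher in heat library 1 than in heat library 2 and lower in control library 1 than in control library 2. Their control libraries differed by -0.34, -0.37 and -0.39 in log2(FPKM + 1), library 1 minus library 2. The tested transcripts within 3 numbers on either side were 2 in number, both called lower, at log2 differences of -1.86 and -1.68 and control levels under 5 FPKM.

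The second group of 3 varied little between replicates. Luffa_aegyptiaca13048.t01 stood at 12.3 and 12.2 FPKM in heat libraries 1 and 2, against 232 and 221 FPKM in control libraries 1 and 2. Its neighbour Luffa_aegyptiaca13049.t01 stood at 1.86 and 1.69 FPKM under heat, against 50.6 and 47.9 FPKM in control. Luffa_aegyptiaca13056.t01 stood at 5.85 and 5.68 FPKM under heat, against 248 and 221 FPKM in control. The first 2 kept 5.42% and 3.60% of their control level and 13056 kept 2.46%. Of the rows between these numbers or within 3 of them, 5 were tested, and all 5 were called lower, with log2 differences from -2.90 to -0.54.

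The pair 19054 and 19055, with the deepest and the third deepest log2 difference of the 177, stood between rows at 0. Of the 6 rows within 3 numbers of the pair, 5 were listed at 0 in all 4 libraries. The other, number 19052, moved the opposite way: it stood at 165 and 128 FPKM in heat libraries 1 and 2, against 14.8 and 17.0 FPKM in control libraries 1 and 2, and was called higher. Nearby numbers thus did not always share a direction. Among the 10 consecutive pairs, both transcripts leaned to the same control library in 7 and to the same heat library in 6; of all 10169 consecutive pairs of tested transcripts, 5080 and 5261 did so. With 10 pairs, 1 pair is worth 10 percentage points. Neighbouring numbers can belong to close copies of a gene, and the treatment of reads that fit several copies is unstated, so values of single members of such pairs are uncertain.

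Transcripts next to the 177 in the numbering were taken by number, except that the 177 themselves, chosen by value, were left out. More of these neighbours were lower under heat than in the table as a whole, which includes the 177. Of the 331 rows 1 number away, lipoxygenases and the 177 themselves left out, 80 were at 0 in every library and 179 were abundant enough to be tested. Of the 179, 109 (60.9%) fell, 39 (21.8%) rose and 31 did not pass (limma, Benjamini-Hochberg adjustment over all 18186 transcripts), where 42.5% and 30.9% of all tested transcripts did so. Their median log2 difference was -0.82, against -0.20 over all transcripts tested. A log2 difference of -2 or lower was found for 44 of them (24.6%), against 10.5% of all.

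At larger distances in the numbering the share was closer to that of the whole table. The share called lower was 57.5% at 2 numbers, between 49.7% and 52.2% at 3 to 5 numbers, 45.5% at 10, 42.8% at 20 and 42.9% at 50, with 175 to 193 tested transcripts at each distance. The median log2 difference was -0.66 at 2 numbers and -0.18 at 50. Median control levels ran from 9.41 FPKM at 4 numbers to 12.4 FPKM at 1 number, against 9.95 FPKM over all tested transcripts. Levels were not matched between the distances. After rescaling by the median of ratios, which moved the median of all tested transcripts to 0.02, 54.2% of the adjacent transcripts were called lower against 36.2% of all. Transcripts with neighbouring numbers may not be independent of each other, and the difference between these shares was not tested.

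**Figure D5:**
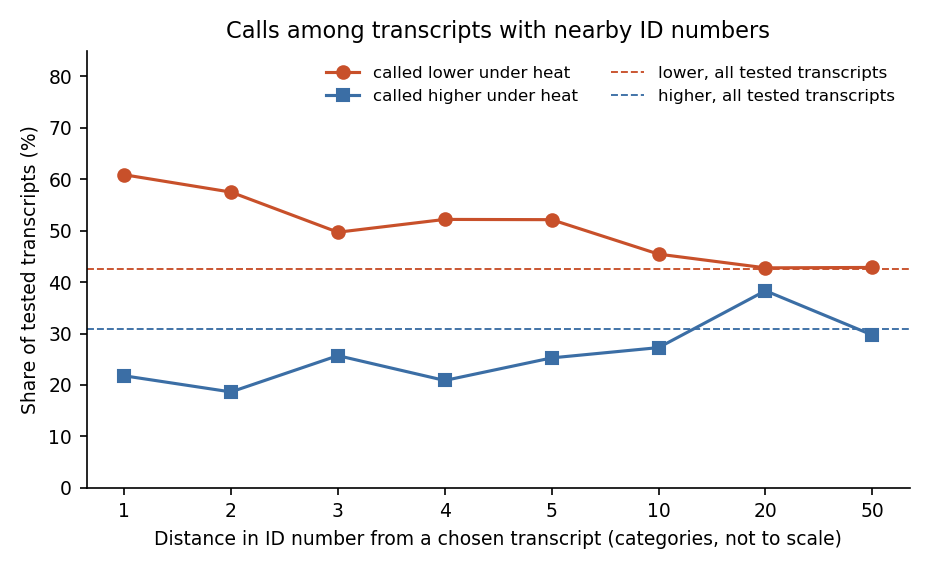
Share of tested transcripts called lower (circles) or higher (squares) under heat by limma (vertical, %), at given distances in ID number from one of the 177 (horizontal, categories); dashed lines are the shares over all 18186 tested transcripts. The share called lower is 60.9% at distance 1 and 42.9% at distance 50, where the dashed line stands at 42.5%.

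Single neighbours ranged from near the threshold to a clear rise, as 2 examples picked after their values were seen show. Luffa_aegyptiaca15010.t01, next to the chosen Luffa_aegyptiaca15011.t01, stood at 7.43 and 5.95 FPKM in heat libraries 1 and 2, against 125 and 107 FPKM in control libraries 1 and 2. It fell by 3.93 on the log2(FPKM + 1) scale (standard error 0.15, adjusted p = 9.74e-06 with limma). Luffa_aegyptiaca15039.t01, next to the chosen Luffa_aegyptiaca15038.t01, stood at 9.40 and 8.60 FPKM under heat, while it was at 0.0643 FPKM in control library 1 and listed at 0 in control library 2. It rose by 3.28 on the same scale (standard error 0.17, adjusted p = 2.19e-05 with limma). The spread behind these p-values is that between replicate libraries within each group, which limma draws toward the spread of other transcripts of like level. It may be technical.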

How the data were processed

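RNA-seq was done on 2 heat-stressed and 2 control samples of Luffa aegyptiaca. The authors deposited 1 table of FPKM values, with 1 column per sample. StringTie 2.0, HISAT2 2.2.1 and fastp 0.20.1 are listed in the submitters' processing notes, without their roles or order. Genome build, annotation and the handling of reads with several matches: not given in the sources used here. FPKM keep no read depth, so no counting interval is given.

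Values were analysed as log2(FPKM + 1). Rows with a mean of at least 1 FPKM were fitted with limma 3.58.1 in R 4.3.3, with group as the only term and a variance trend, two-sided, with Benjamini-Hochberg adjustment over all 18186 rows and a threshold of 0.05.

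The 177 transcripts and the lists were chosen with earlier results of these data known. The named transcripts were the 6 with the highest control mean, the 4 with the lowest log2 difference, the 4 with the highest heat mean, the 2 most abundant at 0 in 1 heat library, groups of 3 within 10 numbers, and the 3 on each side of the threshold. Planned lists of pathway and tissue genes could not be matched, as the rows carry numbers.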

Additional observations from a re-analysis of the deposited data

How the results depend on the processing

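The number of transcripts that met the rule depended most on its own terms. It was 531 with a pseudocount of 0.1, 315 at a log2 difference of -3.5 or lower and 39 at -5 or lower, against 177. After rescaling by the median of ratios 132 met it, and without 1 library at a time 159 to 179. With a pseudocount of 0.1 the median log2 difference of the 177 was -5.28, against -4.53; without 1 library it was -4.59 to -4.48. Their share of control FPKM was 6.55% after quantile normalization, against 6.12%. For the 160 above 0 in both heat libraries, an alternative chosen after seeing the data, the shares were 0.179% under heat and 5.75% in control. Adjacent transcripts called lower made up 50.9% to 59.4% without 1 library, against 60.9%; the lowest share came without control replicate 1, where 32.0% of all tested transcripts were lower, against 42.5%. With no filter on low values the shares were 49.4% and 30.7%. In the fits without 1 library, the group left with 1 library took its spread from the other one. The calls over the whole table numbered 14924 of 27490 tested with no filter on low values and 9687 of 12651 at a minimum mean of 5 FPKM. They numbered 13290 after rescaling and 13362 after quantile normalization, against 13352. These totals hide a shift in direction. Calls as lower and higher were 6573 and 6717 after rescaling and 6955 and 6407 after quantile normalization, against 7735 and 5617. The excess of lower calls over the whole table thus depended on the scaling. With a replicate block there were 13149 calls, and 59.8% of the adjacent transcripts were lower. Same-numbered libraries deviated with a correlation of -0.0681 across transcripts, and the labels do not say that they pair. Of 128 log2 differences of the 16 named transcripts under alternatives, 19 moved beyond the spread between replicates. Leaving out 1 library or adding a replicate block could not move a value beyond that spread, because of how it is computed. The 19 all came from the pseudocount, the rescaling and the quantile normalization, so 19 of 128 does not measure how stable the values are. After rescaling, 5 of the 16 missed the rule, at -3.86 (13048), -3.98 (13049), -3.76 (19630), -3.87 (37308) and -3.76 (16777). The causes of these shifts were not tested. The limit that depth sets on values under 1 FPKM is unknown.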
